A study of Mus musculus with 8 samples.

Results

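Chemokines are small secreted proteins that direct the movement of leukocytes, and each acts through G protein-coupled receptors on the responding cell. Inflammatory chemokines recruit monocytes, granulocytes and T cells into tissue, homeostatic chemokines place cells in resting tissue and lymphoid organs, and atypical receptors bind chemokines without G protein signalling and limit their supply. In skeletal muscle these proteins are known for the recruitment of monocytes through Ccr2 after injury. Chemokine and chemokine receptor genes were examined in quadriceps muscle of mice with and without the nucleoporin Nup210, an integral membrane protein of the nuclear pore complex. The members were the rows of the expression table whose symbol begins with Ccl, Cxcl, Cx3cl, Xcl, Ccr, Cxcr, Cx3cr, Xcr or Ackr and a digit, together with Pf4 and Ppbp, which are CXC chemokines with older names. The rule found 65 of 47643 genes, of which 40 were ligands, 23 receptors and 2 pseudogenes.

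The libraries came from 8 C57BL/6 mice, 1 library each, of which 4 carry the label Nup210-/- and 4 the label Nup210+/+. The methods of the study give C57BL/6J as the strain of the backcross. The Nup210-/- line is constitutive: loxP sites flank exon 2 of Nup210, and the exon was deleted with an Hprt-Cre transgene, so the deletion is not limited to muscle. The age and sex of these mice were not given in the sources used here. The deposited values are TPM, length-corrected estimates that sum to 1000000 transcripts in each library, so levels can be compared between genes.

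Nup210 mRNA itself did not separate the genotypes. It was 9.54, 10.79, 11.93 and 8.81 TPM in the libraries labelled Nup210-/- and 5.71, 10.11, 9.19 and 6.71 TPM in those labelled Nup210+/+, with a log2 fold change of 0.44 (SE 0.147, limma adjusted p = 0.231). The deposited values are per gene and do not show whether exon 2 was present, so every direction below rests on the labels. Nup210+/+ replicate 2 stood apart in granulocyte precursor genes, whose summed level was 381.7 TPM there and 0.31 to 2.12 TPM in the other 7 libraries. Skeletal muscle genes were the most abundant of the marker lists, with sums of 77030 to 89380 TPM.

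Genotypes were compared with limma on log2(scaled TPM + 1), where each library was scaled by the median of its ratios to the average library, and p-values were adjusted by Benjamini-Hochberg over the 14229 genes with a mean of at least 0.5 TPM. Of the 65 members, 31 passed that minimum. Fold changes on this scale understate the change of genes with low TPM, and the p-values reflect only how mice of 1 genotype vary. Single members were also compared with a two-sided exact permutation test of scaled TPM over the 70 ways to label 4 of 8 libraries, whose smallest possible p is 0.0286.

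The chemokine genes tended towards lower levels in Nup210-/- muscle, and Pf4 was the member that passed the adjusted threshold. Of 31 tested members, 23 had estimates below 0, which is 74.2% of them beside 51.3% of all genes tested. At an unadjusted limma p of 0.05, 10 members were lower, 32.3% of those tested beside 7.18% of all genes, and 0 were higher, beside 7.00% of all genes. At an adjusted p of 0.05, 1 member, Pf4, was lower, against 0.0633% of all genes. In 5 members, 16.1%, every Nup210-/- library lay below every Nup210+/+ library in scaled TPM, beside 4.60% of all genes. The median log2 fold change of the tested members was −0.37, and that of all genes was −0.01. Without Nup210+/+ replicate 2, 9 of 31 tested members were lower at an unadjusted limma p of 0.05, and without Nup210+/+ replicate 3, 8 of 28 were. Over all genes, in either direction, 1837 of 14090 and 1845 of 14175 passed that p in these fits. Ccl21b was listed at 0 in all 4 Nup210-/- libraries. Without it, 22 of 30 estimates were below 0 and the median was −0.35. Ppbp, Ccl5 and Ccr1 also passed the minimum through their Nup210+/+ values, with Nup210-/- means of 0.295, 0.28 and 0.438 TPM. Ccl12 and Ccl19 passed it through their Nup210-/- values, with Nup210+/+ means of 0.338 and 0.3 TPM. All of these are included in the counts above and in the counts by class below.

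Members of the family lie close together in the genome. On GRCm38, 45 members fell into 10 clusters in which neighbours were less than 1 Mb apart. Pf4 (ENSMUSG00000029373, plus strand of chromosome 5, 90772435 to 90773383) and Ppbp (ENSMUSG00000029372, 90768518 to 90770063) encode the CXC chemokines of platelet granules and are adjacent on the same strand. Ccl6 (ENSMUSG00000018927, minus strand of chromosome 11, 83587882 to 83593087) and Ccl9 (ENSMUSG00000019122, 83572919 to 83578636) encode CC chemokines of macrophages and are likewise neighbours. The 250 bases before the start of each of these 4 genes are shown from RefSeq on GRCm38.p6, because the pairs lie side by side and all 4 had estimates below 0. Capitals mark matches on either strand to a TATA box, TATAAA, to the core of the site of the myeloid factor PU.1, GAGGAA, or to a GATA site, AGATAA.

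Pf4 (chr5:90772185-90772434, plus strand): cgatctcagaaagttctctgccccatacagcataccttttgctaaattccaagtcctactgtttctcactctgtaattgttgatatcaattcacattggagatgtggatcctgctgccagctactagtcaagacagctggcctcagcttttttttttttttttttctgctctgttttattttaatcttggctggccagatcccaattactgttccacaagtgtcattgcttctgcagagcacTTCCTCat
Ppbp (chr5:90768268-90768517, plus strand): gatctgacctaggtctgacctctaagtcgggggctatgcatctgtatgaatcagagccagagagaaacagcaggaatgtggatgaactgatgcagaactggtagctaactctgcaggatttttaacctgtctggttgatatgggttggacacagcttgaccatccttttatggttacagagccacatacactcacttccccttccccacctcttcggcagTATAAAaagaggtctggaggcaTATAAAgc
Ccl6 (chr11:83593088-83593337, minus strand): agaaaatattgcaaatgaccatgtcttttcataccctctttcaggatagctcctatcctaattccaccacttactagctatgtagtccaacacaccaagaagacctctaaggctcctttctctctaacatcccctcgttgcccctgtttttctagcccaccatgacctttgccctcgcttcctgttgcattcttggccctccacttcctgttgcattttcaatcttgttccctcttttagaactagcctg
Ccl9 (chr11:83578637-83578886, minus strand): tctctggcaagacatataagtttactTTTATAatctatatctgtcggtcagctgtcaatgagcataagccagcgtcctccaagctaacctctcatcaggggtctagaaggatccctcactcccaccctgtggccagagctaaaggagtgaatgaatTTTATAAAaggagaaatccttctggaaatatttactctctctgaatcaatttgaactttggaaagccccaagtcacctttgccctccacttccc

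The Pf4 window held 1 match, the PU.1 core read on the opposite strand 8 bases before the start. The Ppbp window held 2 TATA boxes, 8 and 30 bases before the start, and the Ccl9 window held 3 TATA matches, of which 2 overlap on opposite strands. No match was found in the Ccl6 window. RefSeq promoters were matched for 48 of the 65 members, as 55 promoters. TATAAA occurred in 29.1% of these and in 12.4% of all 32851 promoters of that length, GAGGAA in 30.9% and 23.3%, and AGATAA in 16.4% and 9.99%. These matches describe the letters and identify no bound site.

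A few ligands made up most of the chemokine RNA of the muscle. Ccl11, the eosinophil attractant eotaxin, had the highest mean, 53.4 TPM over the 8 libraries, which was 16.4% of the TPM of all members. It was followed by Cxcl14 at 44.1, Cxcl12 at 37.3, Ccl21a at 32.9, Ccl6 at 30.8 and Pf4 at 29.6 TPM, and these 6 ligands together took 70.0%. Ackr3, an atypical receptor that binds Cxcl12, had the highest mean of the receptors at 18.1 TPM, above every signalling receptor. The summed TPM of all 65 members was 257.6, 288.0, 278.3 and 264.8 in the Nup210-/- libraries and 366.3, 381.6, 475.1 and 296.0 in the Nup210+/+ libraries. The genotypes did not overlap in these sums, which are of TPM without scaling. For the receptors alone the sums were 26.1 to 30.4 TPM in Nup210-/- and 30.3 to 53.1 TPM in Nup210+/+ libraries, which overlapped by a single library of each genotype.

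**Figure D1:**
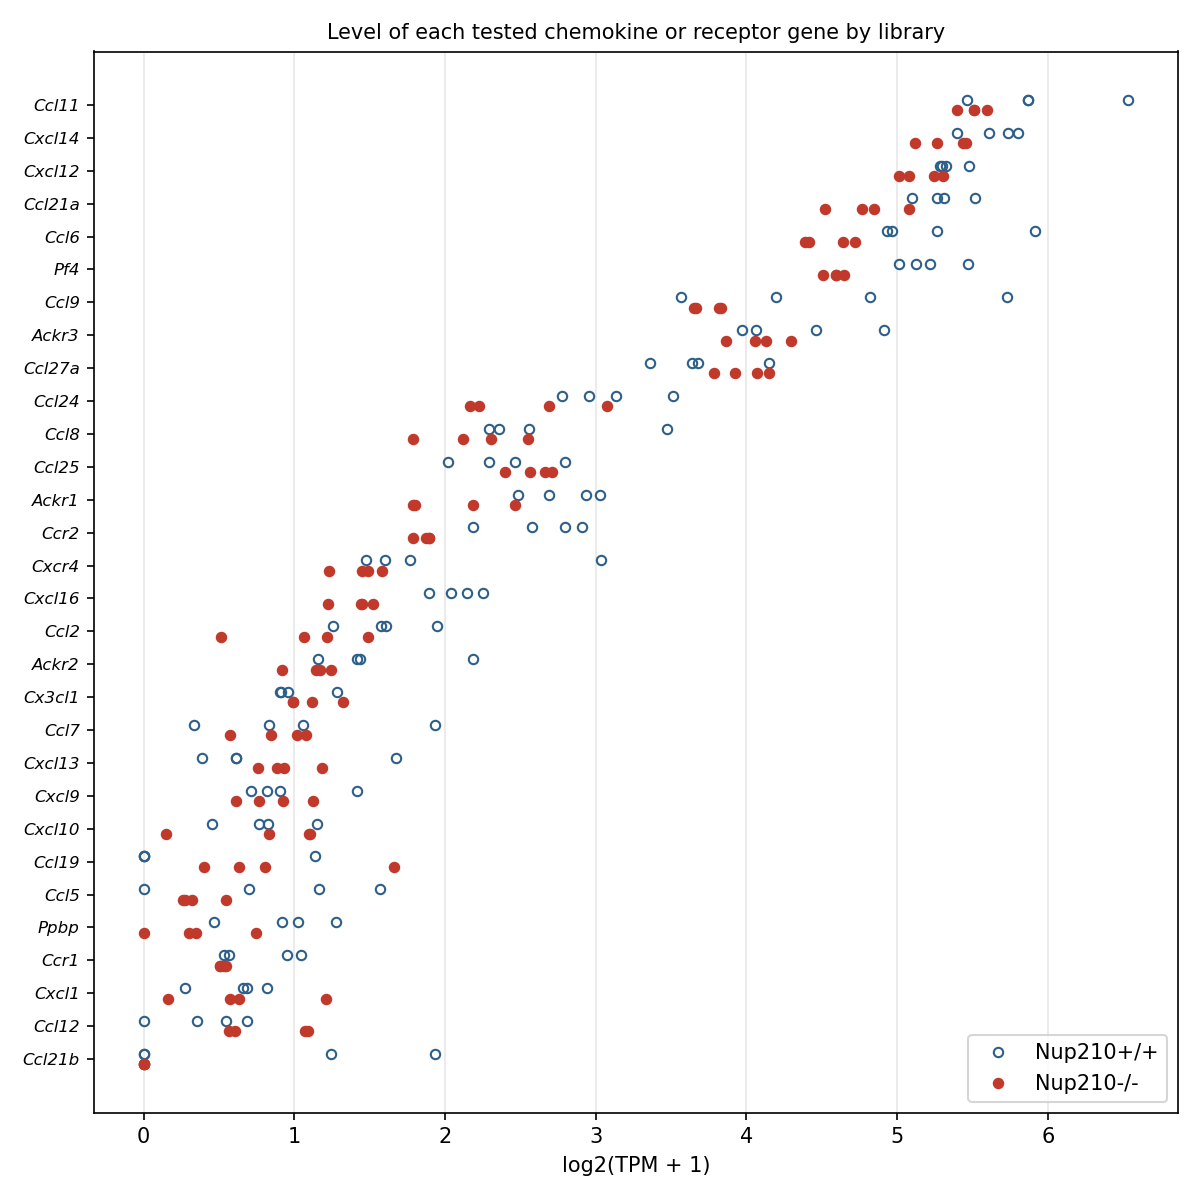
Level of 30 tested members as log2(TPM + 1) on the horizontal axis, with the members ordered by mean TPM and 1 point per library (filled red, Nup210-/-, open blue, Nup210+/+). Ccl11 has the highest mean, 53.4 TPM, and the filled points of Pf4 and Cxcl16 lie clear of the open ones.

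Pf4 and Ppbp, grouped as platelet chemokines, were the class in which both members were lower at an unadjusted p of 0.05. Ppbp passed the minimum for testing only through its Nup210+/+ values, with a Nup210-/- mean of 0.295 TPM. The class name does not give the cells that held the RNA in this tissue, which was not tested. Pf4, also called Cxcl4, was 23.14, 23.20, 24.12 and 21.72 TPM in the Nup210-/- libraries and 36.21, 33.85, 43.40 and 31.21 TPM in the Nup210+/+ libraries. All Nup210-/- libraries were within a narrow range below the lowest Nup210+/+ library. The means were 23.1 ± 0.991 and 36.2 ± 5.24 TPM (SD, n = 4 each), a ratio of 0.637. The log2 fold change of Pf4 was −0.53 (SE 0.0675, limma adjusted p = 0.0490, exact permutation p = 0.0286). The adjusted p ranged from 0.0177 to 0.229 over the alternative settings, and it was above 0.05 when any one of the 8 libraries was left out, between 0.0521 and 0.139, with log2 fold changes of −0.56 to −0.48.

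Ppbp, the precursor of several platelet chemokines that act on Cxcr2, was near the minimum for testing. It was 0.27, 0.68, 0 and 0.23 TPM in Nup210-/- and 0.89, 1.03, 1.42 and 0.38 TPM in Nup210+/+ libraries. The lowest Nup210+/+ library lay below the second Nup210-/- library, so the genotypes overlapped. Its log2 fold change was −0.53 (limma adjusted p = 0.306, exact permutation p = 0.0571). Cxcr2, the neutrophil receptor for these products, was 0.09, 0.13, 0.05 and 0 TPM in Nup210-/- and 0.04, 0.16, 0.05 and 0 TPM in Nup210+/+ libraries and was not tested. Platelet and megakaryocyte genes (Itga2b, Gp1bb and Gp9) summed to 0.74 to 1.5 TPM in Nup210-/- and 0.96 to 2.46 TPM in Nup210+/+ libraries, which overlapped.

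Of 23 receptors, signalling and atypical, 7 were tested, and all 7 had estimates below 0, beside 51.3% of all genes. They include Ccr1, which passed the minimum for testing through its Nup210+/+ values. At an unadjusted limma p of 0.05, 3 of the 7 were lower, beside 7.18% of all genes. Ccr2, the receptor that brings monocytes out of the bone marrow and into tissue, was 2.66, 2.72, 2.45 and 2.72 TPM in Nup210-/- and 4.97, 5.95, 6.51 and 3.54 TPM in Nup210+/+ libraries. The genotypes did not overlap, and the spread was wider in Nup210+/+ mice. The means were 2.64 ± 0.128 and 5.24 ± 1.3 TPM (SD, n = 4 each), with a log2 fold change of −0.68 (SE 0.130, limma adjusted p = 0.0949, exact permutation p = 0.0286). With library weights the adjusted p of Ccr2 was 0.0419, and over all alternatives it ran from 0.0419 to 0.261.

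Ccr1, a receptor for Ccl5, Ccl6 and Ccl9 among others, was 0.45, 0.42, 0.46 and 0.42 TPM in Nup210-/- and 0.45, 1.06, 0.93 and 0.48 TPM in Nup210+/+ libraries. Its genotypes overlapped, and the log2 fold change of −0.21 had an adjusted p of 0.558 (limma) and was −0.12 without Nup210+/+ replicate 2. Of the 75-base words of Ccr2, 1.16% occur in another gene.

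Cxcr4, the receptor for Cxcl12 on leukocytes and progenitor cells, was 1.73, 1.80, 1.35 and 1.99 TPM in Nup210-/- and 2.40, 7.19, 1.78 and 2.03 TPM in Nup210+/+ libraries. Nup210+/+ replicate 2, the library with the granulocyte precursor genes, was far above the rest. The log2 fold change was −0.47 with that library and −0.12 without it (limma adjusted p = 0.518 and 0.783).

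**Figure D2:**
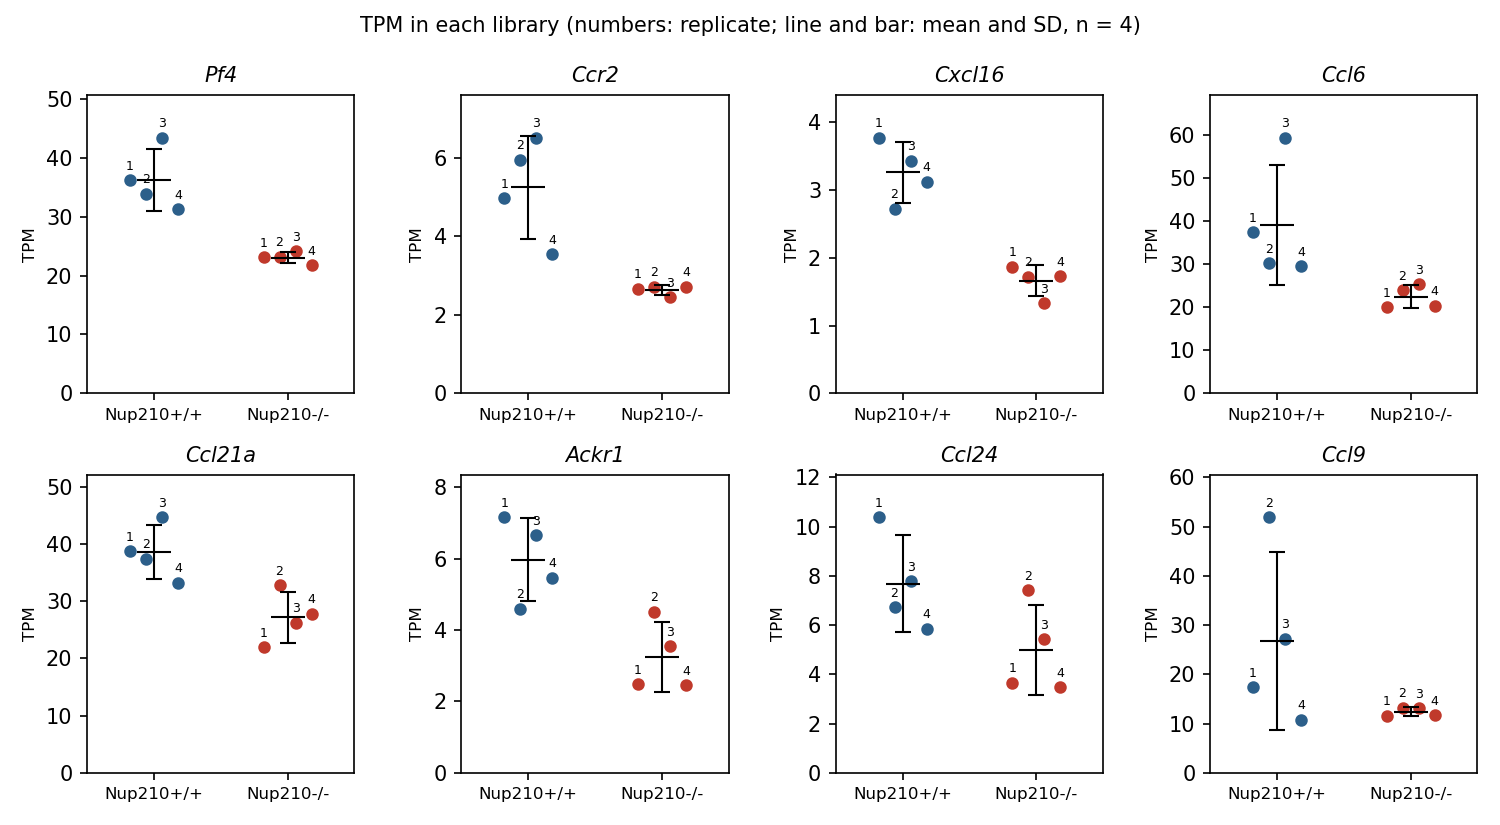
TPM of 8 members in each library on the vertical axis, from 0, with numbered points for the replicates and a line and bar for the mean and SD (n = 4 per genotype). Pf4 and Ccr2 do not overlap between genotypes, whereas Ccl9 overlaps, with Nup210+/+ replicate 2 at 51.94 TPM.

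Among the atypical receptors, Ackr1, which carries inflammatory chemokines across the endothelium of venules, had the largest estimate. It was 2.48, 4.51, 3.54 and 2.45 TPM in Nup210-/- and 7.16, 4.60, 6.66 and 5.46 TPM in Nup210+/+ libraries. On TPM the genotypes were barely separated, and after scaling they overlapped. This gave a log2 fold change of −0.65 (SE 0.169, limma adjusted p = 0.168, exact permutation p = 0.0571). Its exons overlap Cadm3 on the same strand, and 16.9% of its 75-base words also occur in another gene. Summed levels of a venular endothelium list chosen after the values were seen overlapped, at 17.3 to 25.9 TPM in Nup210-/- and 15.2 to 24.2 TPM in Nup210+/+ libraries.

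Ackr2, a scavenger of inflammatory CC chemokines, was 1.25, 1.37, 1.21 and 0.89 TPM in Nup210-/- and 1.70, 1.67, 3.55 and 1.23 TPM in Nup210+/+ libraries, with overlap and a log2 fold change of −0.37 (limma adjusted p = 0.410), or −0.18 without Nup210+/+ replicate 3. Ackr3 was 15.68, 13.59, 18.67 and 16.48 TPM against 21.01, 15.75, 29.08 and 14.65 TPM, with a log2 fold change of −0.17 (limma adjusted p = 0.664), or −0.02 without Nup210+/+ replicate 3. In both receptors Nup210+/+ replicate 3 was the highest library. Ackr4, which removes Ccl19, Ccl21 and Ccl25, was 0.31, 0.37, 0.26 and 0.71 TPM in Nup210-/- and 0.72, 0.42, 0.59 and 0.51 TPM in Nup210+/+ libraries and missed the minimum for testing with a mean of 0.486 TPM.

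**Figure D3:**
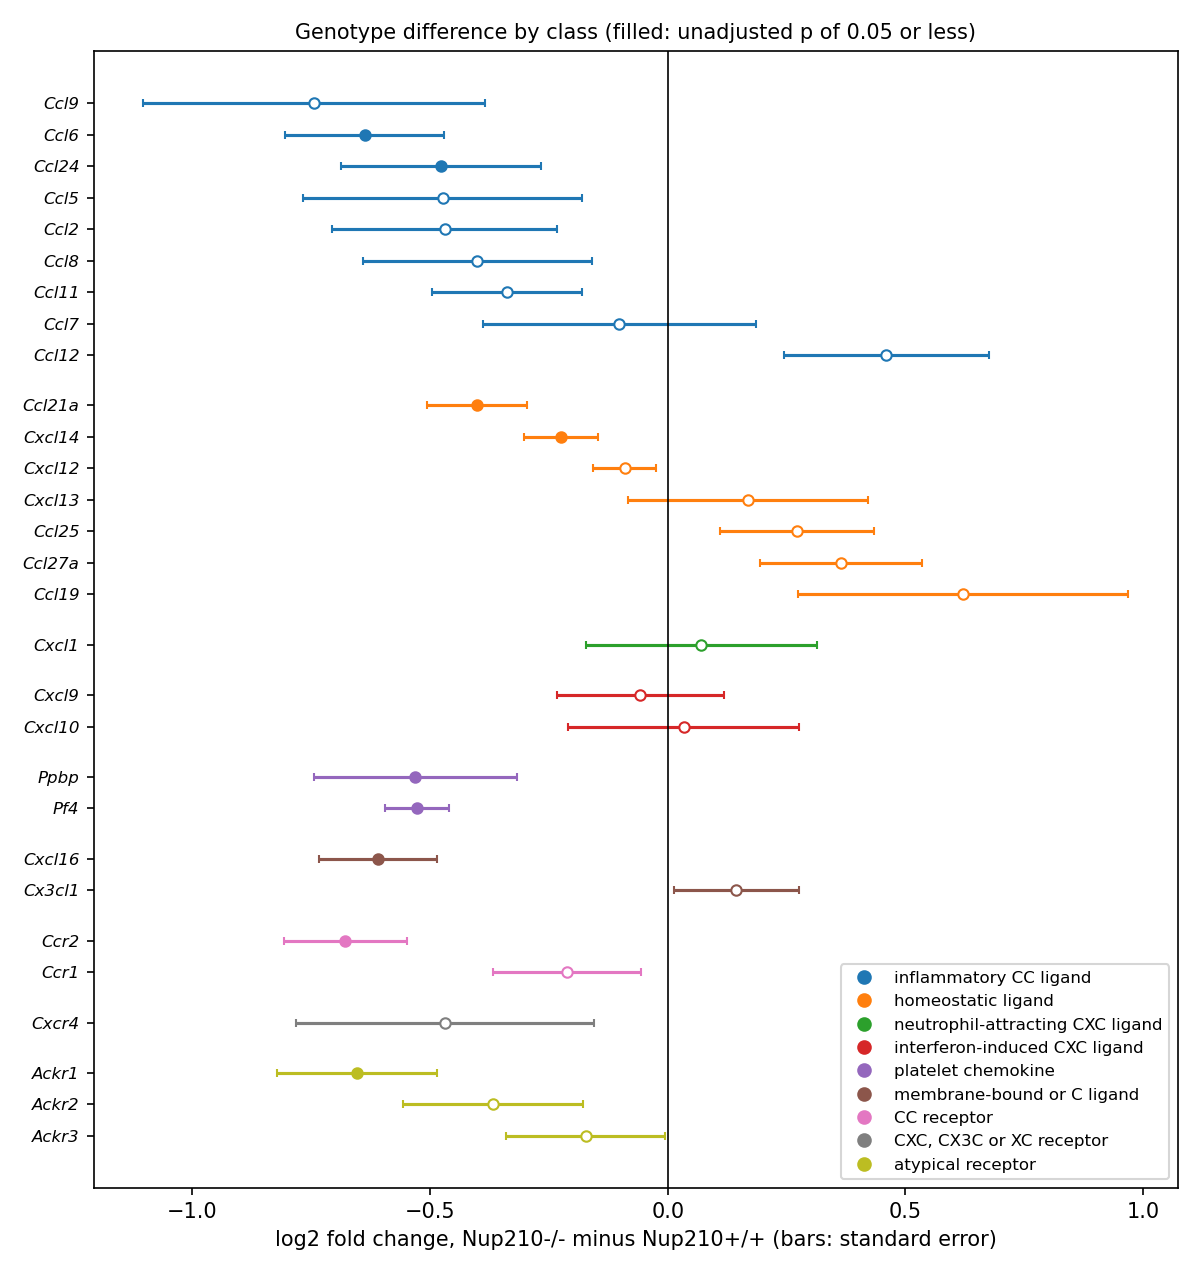
Log2 fold change of tested members, Nup210-/- minus Nup210+/+, on the horizontal axis with standard errors, coloured by class and filled where the unadjusted limma p was 0.05 or less. Ccl21b, listed at 0 in all Nup210-/- libraries, is left out, and the receptors and both platelet chemokines lie to the left of 0.

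Of 9 tested inflammatory CC ligands, 8 had estimates below 0 (88.9%, beside 51.3% of all genes), with a median log2 fold change of −0.47. Of these, 2 were at an unadjusted p of 0.05, Ccl6 and Ccl24, and 0 at an adjusted p of 0.05. Ccl6 was 19.98, 23.95, 25.37 and 20.37 TPM in Nup210-/- and 37.49, 30.28, 59.41 and 29.59 TPM in Nup210+/+ libraries. The genotypes did not overlap, and Nup210+/+ replicate 3 was the highest library. The means were 22.4 ± 2.66 and 39.2 ± 13.9 TPM (SD, n = 4 each), with a log2 fold change of −0.64 (SE 0.167, limma adjusted p = 0.169, exact permutation p = 0.0286).

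Its neighbour Ccl9 varied widely among the Nup210+/+ mice. It was 11.59, 13.25, 13.10 and 11.71 TPM in Nup210-/- and 17.36, 51.94, 27.22 and 10.84 TPM in Nup210+/+ libraries. The genotypes overlapped, since the lowest value of all came from Nup210+/+ replicate 4 and the highest from replicate 2. The log2 fold change was −0.74 (SE 0.359, limma adjusted p = 0.386, exact permutation p = 0.143), and −0.36 without Nup210+/+ replicate 2.

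Ccl24 and Ccl11 are eotaxins, which attract eosinophils through Ccr3. Ccl24 was 3.67, 7.41, 5.44 and 3.48 TPM in Nup210-/- and 10.39, 6.74, 7.79 and 5.85 TPM in Nup210+/+ libraries, with overlap and a log2 fold change of −0.48 (limma adjusted p = 0.350, exact permutation p = 0.143). Ccl11 was 44.49, 44.58, 41.12 and 47.42 TPM in Nup210-/- and 57.45, 57.54, 91.69 and 43.11 TPM in Nup210+/+ libraries. It overlapped through Nup210+/+ replicate 4, and its log2 fold change was −0.34 (limma adjusted p = 0.372), or −0.18 without Nup210+/+ replicate 3. Ccr3 was 0, 0, 0.07 and 0 TPM in Nup210-/- and 0.14, 0.03, 0.03 and 0.06 TPM in Nup210+/+ libraries, so the receptor was barely measured beside its abundant ligands.

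The ligands of Ccr2 did not share a direction. Ccl2, the main monocyte attractant, was 1.81, 1.32, 0.43 and 1.09 TPM in Nup210-/- and 1.98, 2.85, 1.39 and 2.05 TPM in Nup210+/+ libraries, with a log2 fold change of −0.47 (limma adjusted p = 0.401), or −0.27 without Nup210-/- replicate 3. Ccl12, its close relative in mice, was 1.10, 0.48, 0.52 and 1.13 TPM against 0.28, 0.46, 0 and 0.61 TPM, with a log2 fold change of 0.46 (limma adjusted p = 0.376). Ccl7 was 0.49, 0.80, 1.02 and 1.11 TPM against 1.08, 0.78, 2.82 and 0.26 TPM, with a log2 fold change of −0.10 that became 0.17 without Nup210+/+ replicate 3. All of these overlapped between genotypes.

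Ccl8, whose receptor in mice is Ccr8, was 2.45, 3.35, 4.85 and 3.95 TPM in Nup210-/- and 4.89, 3.89, 10.09 and 4.13 TPM in Nup210+/+ libraries. Its log2 fold change was −0.40 (limma adjusted p = 0.473) and −0.17 without Nup210+/+ replicate 3. Ccl5, Ccl3 and Ccl4, which attract T cells and macrophages, were scarce. Ccl5 was 0.20, 0.21, 0.46 and 0.25 TPM in Nup210-/- and 0, 0.62, 1.96 and 1.24 TPM in Nup210+/+ libraries, with a log2 fold change of −0.47 (limma adjusted p = 0.487), or −0.75 without Nup210+/+ replicate 1. Ccl3 was listed at 0 in 6 libraries and was 1.23 TPM in Nup210+/+ replicate 2 and 0.15 TPM in Nup210+/+ replicate 3. Ccl4 was 0, 0.67, 0.72 and 0.20 TPM in Nup210-/- and 0.19, 0.32, 0 and 0 TPM in Nup210+/+ libraries. The cluster of Ccl2, Ccl7, Ccl11, Ccl12, Ccl8 and Ccl1 on chromosome 11 (82035571 to 82305690) ranged in log2 fold change from −0.47 to 0.46 over its 5 tested genes.

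The homeostatic ligands were divided, with 4 of 8 tested members below 0 and 4 above it. Ccl21a, which guides dendritic cells and T cells carrying Ccr7 into lymphatic vessels, was 21.94, 32.79, 26.26 and 27.83 TPM in Nup210-/- and 38.73, 37.47, 44.70 and 33.27 TPM in Nup210+/+ libraries. The genotypes did not overlap, although Nup210-/- replicate 2 and Nup210+/+ replicate 4 were close. The means were 27.2 ± 4.48 and 38.5 ± 4.72 TPM (SD, n = 4 each), with a log2 fold change of −0.40 (SE 0.105, limma adjusted p = 0.169, exact permutation p = 0.0286). Ccl21a and Ccl21b are near-identical copies, and 61.3% of the 75-base words of Ccl21a and 100% of those of Ccl21b occur in another gene, so the split between them is uncertain. Ccl21b was listed at 0 except for 2.82 and 1.37 TPM in Nup210+/+ replicates 3 and 4.

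The sum of the Ccl21a and Ccl21b levels was 27.2 ± 4.48 TPM in Nup210-/- and 39.6 ± 5.56 TPM in Nup210+/+ libraries (SD, n = 4 each, exact permutation p = 0.0286 on scaled TPM), without overlap. Lymphatic endothelium genes, a list chosen after the values were seen, summed to 18.2 to 22.7 TPM in Nup210-/- and 21.9 to 44.9 TPM in Nup210+/+ libraries, which overlapped. Of the 5 genes, 4 had estimates below 0, beside 51.3% of all genes. The log2 fold changes were 0.04 for Prox1, −0.06 for Flt4, −0.28 for Pdpn, −0.46 for Mmrn1 and −0.58 for Lyve1. Whether these genes have a part in the Ccl21a result was not tested. Ccr7 was 0, 0, 0.11 and 0.06 TPM in Nup210-/- and 0.06, 0, 0.16 and 0 TPM in Nup210+/+ libraries.

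Cxcl14, a chemokine of resting epithelium and connective tissue, was 37.48, 43.02, 42.30 and 33.70 TPM in Nup210-/- and 47.82, 52.38, 54.82 and 41.11 TPM in Nup210+/+ libraries. One Nup210+/+ library fell within the Nup210-/- range. Its log2 fold change was small, −0.22 (SE 0.0773, limma adjusted p = 0.247, exact permutation p = 0.0571). Cxcl12, which retains leukocytes and progenitor cells through Cxcr4, was 32.84, 37.01, 38.61 and 31.34 TPM in Nup210-/- and 38.40, 37.93, 43.60 and 39.00 TPM in Nup210+/+ libraries. The genotypes overlapped and its log2 fold change was −0.09 (SE 0.0656, limma adjusted p = 0.552).

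The members with the largest estimates above 0 were Ccl19, Ccl12 and Ccl27a. Ccl19, the other ligand of Ccr7, was 2.16, 0.75, 0.32 and 0.55 TPM in Nup210-/- libraries, and was listed at 0 in 3 Nup210+/+ libraries and at 1.20 TPM in replicate 2. Its log2 fold change was 0.62 (limma adjusted p = 0.439), and 45.3% of its 75-base words are shared with copies. The sum of Ccl19 and its 2 pseudogenes was 0.32 to 2.74 TPM in Nup210-/- and 0 to 1.57 TPM in Nup210+/+ libraries. Ccl27a, a skin chemokine that acts on Ccr10, was 15.80, 14.20, 12.76 and 16.79 TPM in Nup210-/- and 16.75, 9.27, 11.82 and 11.45 TPM in Nup210+/+ libraries. Its log2 fold change was 0.36 (limma adjusted p = 0.375), 33.3% of its words are shared, and its exons overlap those of Il11ra1 on the opposite strand. Ccl25 and Cxcl13 had log2 fold changes of 0.27 and 0.17 with overlapping genotypes.

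Cxcl16, a chemokine tethered to the membrane of macrophages and endothelial cells, was 1.87, 1.72, 1.33 and 1.73 TPM in Nup210-/- and 3.77, 2.72, 3.43 and 3.12 TPM in Nup210+/+ libraries. The highest Nup210-/- library lay clear of the lowest Nup210+/+ library. The means were 1.66 ± 0.232 and 3.26 ± 0.447 TPM (SD, n = 4 each), with a log2 fold change of −0.61 (SE 0.124, limma adjusted p = 0.110, exact permutation p = 0.0286). Its exons overlap those of Zmynd15 on the opposite strand. The adjusted p was 0.0525 to 0.241 over the alternative settings. Its receptor Cxcr6, found on T and NK cells, was 0.10, 0.21, 0.12 and 0.19 TPM in Nup210-/- and 0, 0.16, 0.34 and 0.10 TPM in Nup210+/+ libraries. Cx3cl1, the other membrane-bound chemokine, was 0.99 to 1.5 TPM in Nup210-/- and 0.87 to 1.43 TPM in Nup210+/+ libraries, with a log2 fold change of 0.14 (limma adjusted p = 0.641).

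The interferon-induced ligands Cxcl9 and Cxcl10 and the neutrophil attractant Cxcl1 had log2 fold changes of −0.06, 0.03 and 0.07. Each overlapped between genotypes, at 0.53 to 1.18 TPM against 0.64 to 1.67 TPM for Cxcl9, 0.11 to 1.15 against 0.37 to 1.22 TPM for Cxcl10, and 0.12 to 1.31 against 0.21 to 0.76 TPM for Cxcl1. Of the 34 members that were not tested, 8 were listed at 0 in every library (Ccl1, Ccl20, Ccl26, Ccl27b, Cxcl3, Cxcl17, Cxcr1 and Xcl1), and 26 had a value above 0 in some library. None of the 26 exceeded a mean of 0.486 TPM, and the highest single value was 2.19 TPM, for the pseudogene Ccl19-ps3 in Nup210-/- replicate 4. These included Cx3cr1, Cxcr3, Cxcr5, Xcr1, Ccr4, Ccr6, Ccr8, Ccr9, Ccr10, Ccr1l1, Ccl17, Ccl22, Ccl28, Cxcl2, Cxcl5, Cxcl11, Cxcl15 and Ccl19-ps1, with the low members named above. Read counts were not used here, so the precision of such low values cannot be given.

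**Figure D4:**
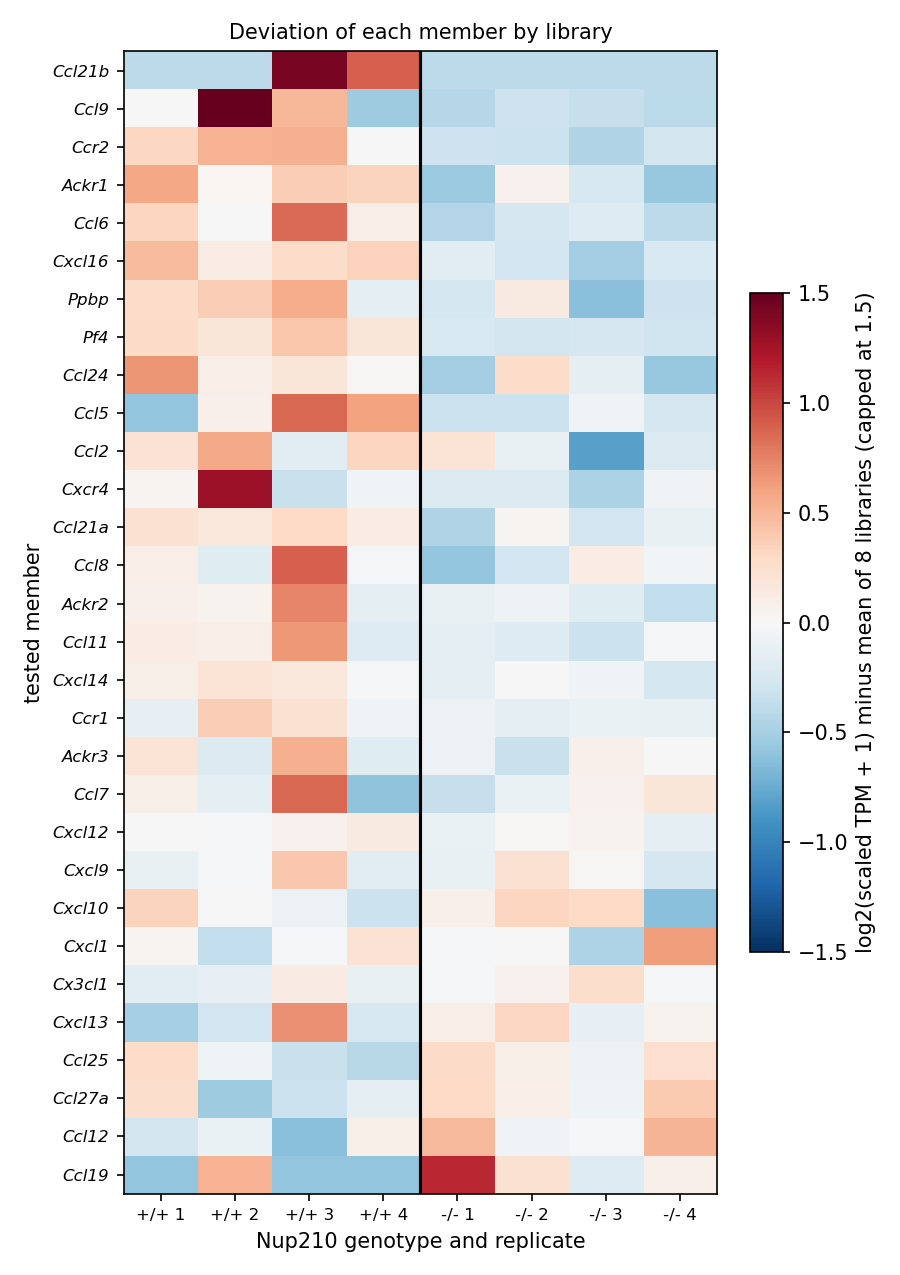
Deviation of 30 tested members in each library from its mean over the 8 libraries, in log2(scaled TPM + 1), with members ordered by log2 fold change and colours capped at 1.5. The Nup210+/+ replicate 3 column is the reddest, with a median deviation of 0.37 over all tested members, and the lower rows, from Cxcl10 down, have estimates above 0.

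The Nup210+/+ libraries were spread widely in these genes. Of the 31 tested members, 26 reached their highest TPM in a Nup210+/+ library, 17 of them in replicate 3, 5 in replicate 1, 4 in replicate 2 and 0 in replicate 4. The median deviation of the members from their mean was 0.37 in Nup210+/+ replicate 3, 0.09 in replicate 1, 0.06 in replicate 2 and −0.02 in replicate 4, on the log2 scale. In the Nup210-/- libraries it was −0.22 to −0.07. Nup210+/+ replicate 4 was nearest to the Nup210-/- libraries. Leaving out Nup210+/+ replicate 3 gave 18 of 28 tested members with estimates below 0, against 23 of 31 with all libraries. The median log2 fold change of all genes in the fit without it was −0.0054, and their share below 0 is not given.

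Genes of leukocytes also had lower sums in Nup210-/- libraries. In bulk RNA, fewer cells of a type and less RNA per cell cannot be told apart. Ptprc, which encodes the pan-leukocyte protein CD45, was 1.71, 2.24, 1.51 and 2.18 TPM in Nup210-/- and 3.10, 7.16, 3.62 and 2.31 TPM in Nup210+/+ libraries. The 5 general leukocyte genes summed to 18.9 to 22.2 TPM in Nup210-/- and 24.0 to 103.5 TPM in Nup210+/+ libraries, with all 5 estimates below 0 and 1 gene, Cd52, at an adjusted p of 0.0490 (limma). The adjusted p of Cd52 ran from 0.0177 to 0.226 over the alternatives and stayed at or under 0.05 in 1 of the 8 fits that left out a library. The 8 monocyte and macrophage genes, all with estimates below 0, summed to 125.6 to 143.7 and 153.0 to 440.7 TPM, and the 7 T cell genes to 0.61 to 0.85 and 1.54 to 3.83 TPM. Of the 7 T cell genes, 1 reached the minimum for testing, Lck, and each gene taken alone overlapped between genotypes. In Nup210+/+ replicate 2 a single gene of the macrophage list, Ly6c2, made up 228.1 of the 440.7 TPM. Without Ly6c2 the list summed to 125.2 to 142.7 TPM in Nup210-/- and 152.8 to 306.3 TPM in Nup210+/+ libraries. Lyz2 averaged 96.34 of the 130.4 TPM that remained in Nup210-/- and 163.7 of 215.5 TPM in Nup210+/+ libraries. On TPM, Lyz2, Adgre1, Csf1r and Itgam did not overlap between genotypes, whereas Cd68, Mrc1, Cd163 and Ly6c2 did. The leukocyte, macrophage and T cell lists did not overlap between genotypes, nor did the B and plasma cell list at 5.45 to 8.40 and 10.7 to 95.7 TPM. Igkc alone averaged 5.88 of the 6.92 TPM of that list in Nup210-/- and 43.9 of 50.7 TPM in Nup210+/+ libraries. The skeletal muscle list was apart in the other direction, with a lowest Nup210-/- sum of 83120 TPM and a highest Nup210+/+ sum of 81910 TPM. These sums are of TPM without scaling and were not repeated after it. Over all genes tested, 978 were lower and 219 higher without overlap in unscaled TPM, against 654 and 680 in scaled TPM.

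For other cell types the sums overlapped between genotypes, but some single genes did not. Acta2 of the mural list was 14.13 to 15.55 TPM in Nup210-/- and 18.98 to 26.28 TPM in Nup210+/+ libraries. Clec9a and Flt3 of the dendritic list were also lower without overlap. Col1a1 of the fibroblast list was apart only on TPM, and Mcpt4 of the mast cell list only after scaling. The other genes overlapped, among them Rgs5, Zbtb46 and Dcn, the largest parts of their sums. Fibroblast genes summed to 491.6 to 568.8 TPM in Nup210-/- and 542.6 to 968.2 TPM in Nup210+/+ libraries, endothelial genes to 55.0 to 62.3 and 56.4 to 67.2 TPM, and mural cell genes to 118.6 to 129.4 and 126.7 to 160.4 TPM. Mast cell and eosinophil genes summed to 17.5 to 25.1 and 23.8 to 41.1 TPM, dendritic cell genes to 1.76 to 2.93 and 2.42 to 3.03 TPM, and neutrophil genes to 0.80 to 2.68 and 1.29 to 18.02 TPM. NK cell genes summed to 0.21 to 0.49 and 0.46 to 13.5 TPM. None of the genes on these lists was at 0 in all 8 libraries.

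Several members were set against the leukocyte genes of the same library, and for these the genotypes overlapped. Per 100 TPM of Ptprc, Pf4 was 996.3 to 1597 TPM in Nup210-/- and 472.8 to 1351 TPM in Nup210+/+ libraries. On the same basis Ccr2 averaged 141 ± 20.9 and 144 ± 42.2 TPM (SD, n = 4 each), Ccl6 1213 ± 325.8 and 1139 ± 513.2 TPM, and Cxcl16 88.4 ± 14.8 and 97.4 ± 43.0 TPM. Ccl9 and Ccl24 overlapped in the same way. Per 100 TPM of the monocyte and macrophage genes, Pf4 averaged 17.6 ± 1.29 TPM in Nup210-/- and 15.3 ± 5.74 TPM in Nup210+/+ libraries, and Ccr2 2.01 ± 0.115 and 2.09 ± 0.534 TPM. With Ly6c2 left out of those genes, Pf4 averaged 17.7 ± 1.26 and 17.4 ± 2.86 TPM and Ccr2 2.03 ± 0.119 and 2.46 ± 0.301 TPM, still with overlap. Lyz2 made up most of the remaining sum. In Nup210+/+ replicate 2, where Ptprc was highest, 5 of the 6 genes had their lowest ratio to Ptprc, and Ccl9 was the exception. These ratios are given as descriptions, and the part that leukocyte RNA has in the chemokine differences was not tested.

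**Figure D5:**
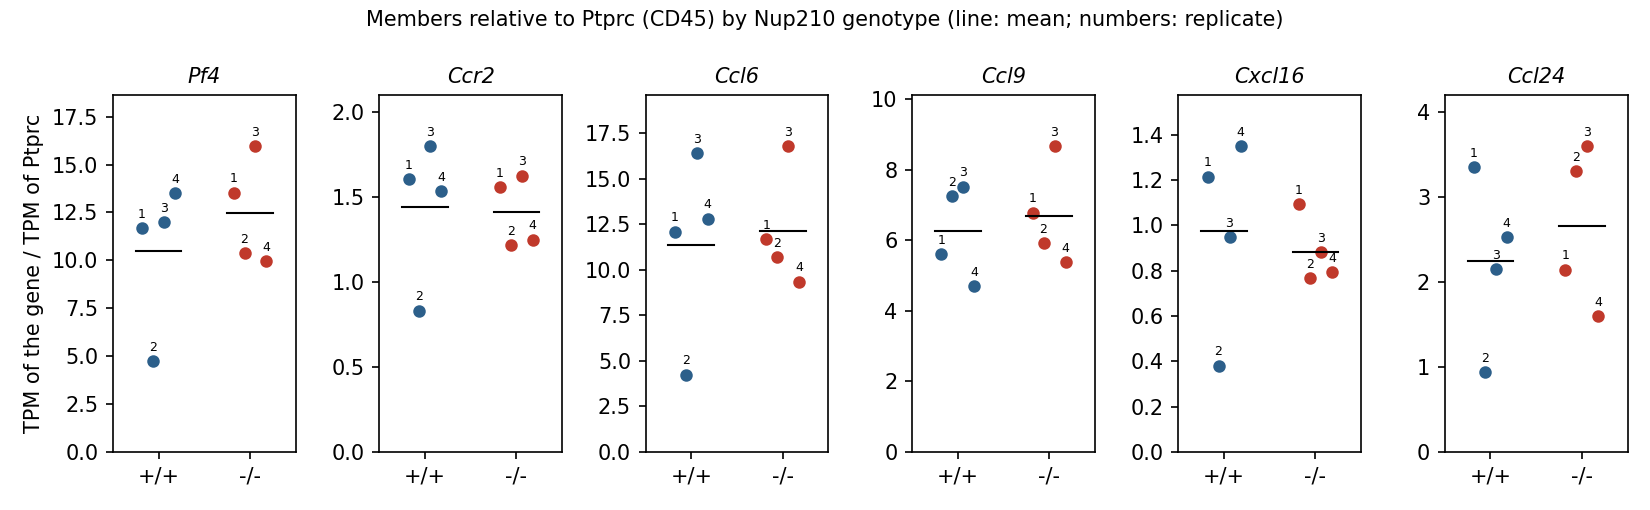
TPM of 6 members divided by the TPM of Ptprc in the same library, on vertical axes from 0, with numbered points for the replicates and a line for the mean of each Nup210 genotype. The genotypes overlap in every panel, and for Pf4 the lowest point is Nup210+/+ replicate 2.

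The genes that act with chemokine receptors inside the cell or beside them on its surface were taken from a list of 52, with G proteins, kinases, integrins and regulators, of which 51 were found and 44 tested. Of these, 33 had estimates below 0 (75%, beside 51.3% of all genes) and 11 above it, with a median log2 fold change of −0.14. At an unadjusted limma p of 0.05, 9 were lower (20.5%, beside 7.18%) and 2 higher (4.55%, beside 7.00%), and without Nup210+/+ replicate 2 or without Nup210-/- replicate 3 the number lower was 5. At an adjusted p of 0.05 there were 0. Of the 9 lower, Pik3cg and Cklf passed the minimum for testing through their Nup210+/+ values. Their Nup210-/- means were 0.4425 and 0.3675 TPM. Rac2, a GTPase of blood cells that drives their migration, had the lowest estimate. It was 0.75, 1.02, 0.93 and 0.85 TPM in Nup210-/- and 1.37, 9.09, 2.77 and 1.18 TPM in Nup210+/+ libraries, without overlap, and its log2 fold change was −0.93 (SE 0.415, limma adjusted p = 0.354). Without Nup210+/+ replicate 2 it was −0.45, nearer 0 than that of Itgam at −0.50.

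Itgam, the integrin subunit CD11b of myeloid cells, was 1.48, 1.41, 1.26 and 1.21 TPM in Nup210-/- and 2.43, 4.93, 3.32 and 1.81 TPM in Nup210+/+ libraries, also without overlap, with a log2 fold change of −0.70 (SE 0.198, limma adjusted p = 0.189). The 2 genes with the highest estimates did not overlap either. Ccrl2, a chemokine receptor-like protein that does not signal, was 6.68, 6.11, 5.57 and 6.50 TPM in Nup210-/- and 5.23, 3.82, 5.38 and 5.18 TPM in Nup210+/+ libraries, with a log2 fold change of 0.38 (SE 0.120, limma adjusted p = 0.213). Nfkbia, the inhibitor of NF-kappaB, averaged 31.2 ± 1.39 TPM in Nup210-/- and 27.1 ± 4.01 TPM in Nup210+/+ libraries (SD, n = 4 each), with a log2 fold change of 0.30 (SE 0.0763, limma adjusted p = 0.166), and its genotypes were separated after scaling and overlapped on TPM.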

How the data were processed

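Polyadenylated quadriceps RNA was made into directional libraries and read from one end. According to the labels and the methods of the study, reads were trimmed with cutadapt 2.3, aligned to mm10 with STAR 2.7.0d and quantified with RSEM 1.3.1 on Ensembl annotations. The values the authors deposited are gene-level TPM, a column for each library, with nothing pooled. The read depth behind TPM is unknown, so no interval for a single library is given, and the study's count-based test could not be used. Between 18185 and 19357 genes were above 0 in a library.

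TPM were scaled by the median of ratios over the 15225 genes above 0 in all libraries (factors 0.936 to 1.12), and a pseudocount of 1 was added before log2. The minimum for testing was a mean of 0.5 TPM, and the test was limma 3.58.1, run in R 4.3.3 (eBayes with trend, Benjamini-Hochberg over all genes tested). The procedure was tested on simulated data. Exact permutation tests went through all 70 labelings in Python 3.11.15, and figures used matplotlib 3.10.9. Coordinates, exon overlaps and shared words of 75 bases, the read length, are from GENCODE on GRCm38 (mm10), a different release from that of the authors.

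The members, classes, pathway and marker lists were chosen with earlier results of these data known. Values in every library are given for tested members at an unadjusted p of 0.05 or without overlap, the 6 ligands and 6 receptors with the highest TPM, the 3 largest changes in each direction, and the partners of the first kinds. Pathway genes are named where they pass the adjusted threshold or are the 2 largest changes in each direction. Members and pathway genes outside this rule are named after their values were seen. Alternatives were pseudocounts of 0.1 and 0.5, minimum means of 0.1 and 1 TPM, no minimum, TPM as deposited, upper-quartile scaling, eBayes without the trend, library weights, the replicate number as a block, and leaving out each library. No 2 libraries were the same: a pair shared equal TPM for at most 201 genes. Values of 1 member are not reported here, although counts over the members include it.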

Additional observations from a re-analysis of the deposited data

Results flagged for a closer look

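Groups of 4 libraries were examined for a library far from the other 3 by Dixon's criterion. It picks about 1 in 20 groups by chance where values are normally distributed. Values at or near 0 TPM are not, so that rate is only a rough guide here. Of 74 groups examined, that rate would give about 3.7, and 7 stood out. In Nup210+/+ replicate 2 these were Cxcr4 at 7.19 TPM (1.78 to 2.40 in the other 3), Ccl3 at 1.23 TPM (0 to 0.15) and Ccl19 at 1.2 TPM (0 in the other 3). In Nup210+/+ replicate 3 they were Ccl8 at 10.09 TPM (3.89 to 4.89), Cxcl13 at 2.19 TPM (0.31 to 0.53) and Cx3cl1 at 1.43 TPM (0.87 to 0.94). In Nup210-/- replicate 3 it was Ccr3 at 0.07 TPM, where the other 3 libraries were listed at 0.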

How the results depend on the processing

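The number of members lower at an unadjusted limma p of 0.05 was 10 of 31 tested and ran from 8 to 13 over the alternatives. The members tested ran from 21 with a minimum mean of 1 TPM to 57 with no minimum, where 10 were lower. Genes at that p in either direction numbered 2017 as reported and 1575 to 2681 over the alternatives. The 13 and the 2681 both came from leaving out Nup210+/+ replicate 4. The number of pathway genes at an adjusted p of 0.05 was 0 in every alternative. In alternatives chosen after seeing the data, the pathway genes lower at an unadjusted p of 0.05 numbered 7 to 13, or 5 to 12 when a library was left out, against 9 as reported, and those higher numbered 1 with TPM as deposited and 2 or 3 otherwise. The call at an adjusted p of 0.05 was less stable. The number of members lower at that threshold was 1 as reported, 0 with a minimum mean of 0.1 TPM, no minimum, TPM as deposited, upper-quartile scaling, eBayes without the trend or the replicate block, 2 with library weights (Pf4 and Ccr2), and 0 to 0 when a library was left out. The number of members higher at an unadjusted p of 0.05 was 0 as reported, 1 with a pseudocount of 0.1, a minimum mean of 0.1 TPM, no minimum or eBayes without the trend, 2 with library weights, 2 with the replicate block, and 0 to 2 when a library was left out. The log2 fold change of Ccl7 turned to 0.17 without Nup210+/+ replicate 3 and ran from −0.32 to 0.17 over the libraries left out. Over all 14229 genes tested, 16 passed the adjusted threshold as reported, and 0 to 84 over the alternatives. Same-numbered libraries did not deviate together (correlations −0.03 to 0.09). These correlations cannot show whether the numbers mark a pairing of the mice. The replicate block left Pf4 at an adjusted p of 0.229. The causes of these shifts were not tested. Without read counts, the depth behind members near 0.5 TPM is unknown.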
